A study of Homo sapiens with 6 samples.

Results

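The TRIM genes, which encode tripartite motif proteins, were examined in the ovarian adenocarcinoma line SKOV3ip1, a human cell line, 48 h after transfection with BARD1 siRNA or control siRNA. Members were the rows of the deposited gene table with the biotype protein-coding and a name made of TRIM followed by a digit. This rule took 78 of 58735 rows, or 78 of 19951 protein-coding rows. No measured value entered it. The series holds 6 libraries, 3 per group, from cells of the same wild-type line that received 2 µg of siRNA. The question behind the design was how loss of BARD1, the RING-domain partner of BRCA1, acts on pathways of tumour angiogenesis. SKOV3ip1 is a single line, the siRNA sequences are not used here, and other effects of the siRNA cannot be told apart from that of BARD1 loss.

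TRIM proteins share an N-terminal array of a RING finger, 1 or more B-boxes and a coiled coil. The RING finger recruits a ubiquitin-loaded E2 enzyme, so that most members are ubiquitin ligases, while a C-terminal domain selects the substrate. The PRY-SPRY domain is the most common one and serves antiviral members such as TRIM5 and TRIM21. Other members read histones through a PHD finger and bromodomain, bind RNA through NHL repeats or attach to microtubules through a COS box. Several members lack the RING finger. Part of the family is induced by interferon and acts in sensing of viral nucleic acids, and TRIM28 is the corepressor of KRAB zinc finger proteins.

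Libraries held 16621108 to 17743404 gene counts, so that depth was nearly even. The target was lower in every silenced library: BARD1 counts were 805, 644 and 887 in controls and 96, 110 and 169 after silencing, a log2 fold change of −2.58 (± 0.14, SE; adjusted p = 1.21e-15 by edgeR). The labels give the material both as cells and as tumours. All 6 carcinoma markers checked (EPCAM, KRT8, KRT18, KRT19, PAX8, ERBB2) had counts, with a summed level of 4028 to 4417 CPM (the count scaled for library size) in controls and 4263 to 4374 CPM after silencing. Within that sum PAX8 and KRT18 rose 1.68-fold and 1.32-fold, KRT19, EPCAM and ERBB2 fell 1.52-fold, 1.18-fold and 1.10-fold, and KRT8 was not called. The leukocyte markers PTPRC, CD3E and CD68 were at 0 in every library. The endothelial markers PECAM1 and CDH5 summed to at most 0.308 CPM. The fibroblast markers COL1A1, COL3A1 and ACTA2 summed to 23.9 to 24.9 CPM in controls and 14.99 to 19.9 CPM after silencing. COL3A1 fell from 19.2 ± 0.540 to 10.8 ± 2.00 CPM (adjusted p = 7.26e-07 by edgeR), while COL1A1 was at 4.89 ± 0.297 and 6.71 ± 0.637 CPM and was not called. The part of these marker changes in the results below was not tested.

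Of the 78 TRIM genes, 44 had enough counts to be tested. Another 14 had between 1 and 68 counts over all libraries and were left out by the filter on low counts. The remaining 20 were without a single count, and for each of them a group total of up to 3 counts cannot be told from 0 by counting error. Among these 20 were the muscle gene TRIM63, TRIM72, TRIM50, TRIM42, TRIM40 and 11 genes on chromosome 11, most of them members of the TRIM49, TRIM51 and TRIM64 groups of near-identical copies. Reads of such copies may not have been assigned to any one of them. Between 50 and 52 members had a count in each library. Together the family took 2075 to 2105 CPM (of all gene counts, unscaled) in controls and 2085 to 2164 CPM after silencing. These unscaled ranges overlap. The TMM factors used for single genes were 1.017 to 1.026 in controls and 0.977 to 0.982 after silencing. Dividing by them lowers the control totals and raises the silenced ones, and the ranges then no longer overlap. In bulk RNA, fewer cells that express a gene and less of its RNA per cell cannot be told apart.

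The family's RNA was dominated by 1 gene. Levels are compared between genes as normalised CPM per kilobase of gene length, with CPM scaled by the trimmed mean of M-values (TMM). On this scale TRIM28, the KRAB corepressor, stood at 153 in controls and 122 after silencing. TRIM25, a ligase of the RNA sensor RIG-I, came next at 19.1 and 35.4. TRIM37, a histone H2A ligase also found at centrosomes, was at 15.3 over both groups, and TRIM44, which carries a zinc finger of the deubiquitinase type in place of a RING, was at 14.2 and 14.4. TRIM65, a ligase of the RNA sensor MDA5, was at 13.9 and 14.2. TRIM28 made up 29.4% to 30.9% of all TRIM counts in controls and 22.3% to 23.1% after silencing. The share of TRIM25 moved the other way, from at most 9.004% to between 15.4% and 15.6%.

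**Figure D1:**
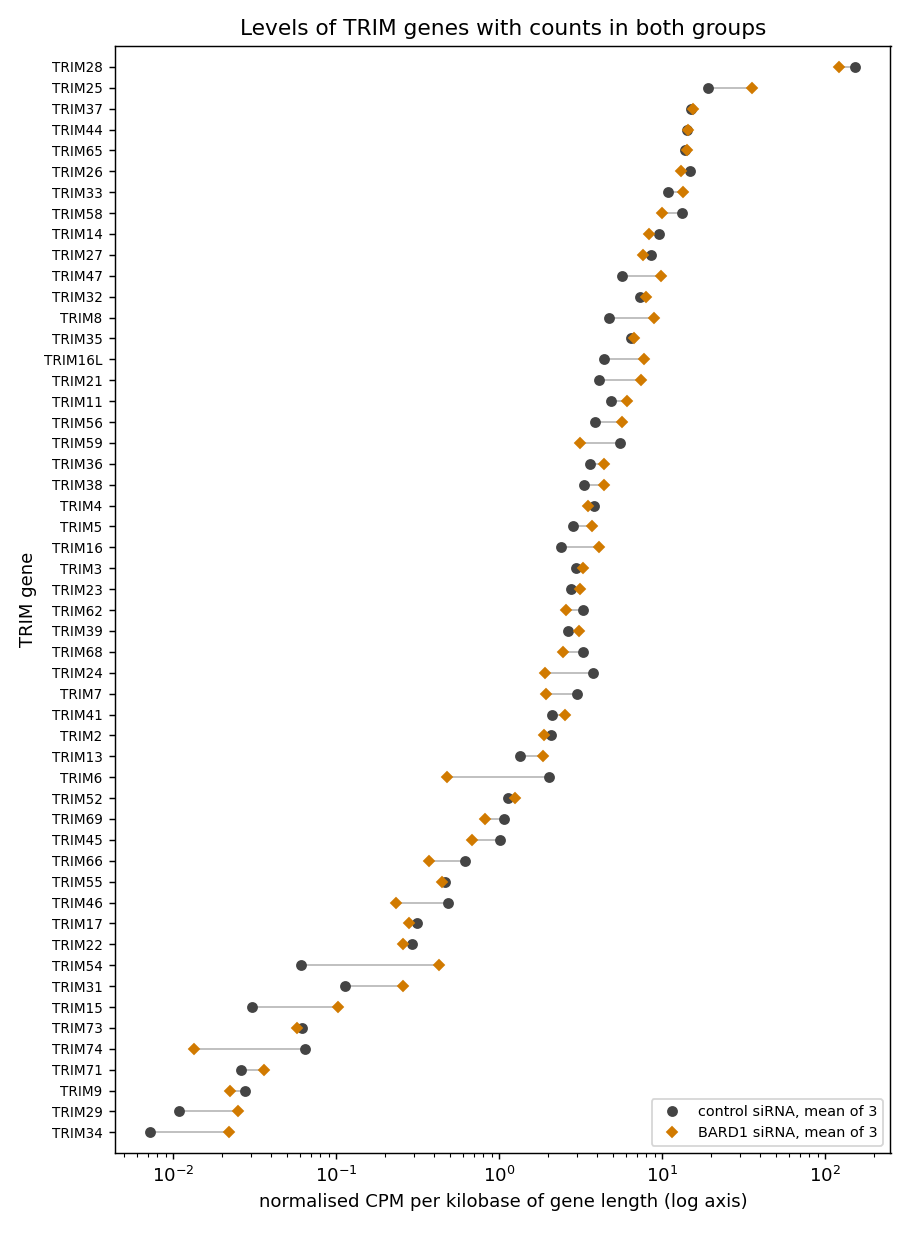
Levels of the 52 TRIM genes with at least 1 count in both groups, as normalised CPM per kilobase of gene length on a log axis, with a circle for the mean of the 3 control siRNA libraries and a diamond for the mean of the 3 BARD1 siRNA libraries. TRIM28 stands apart at 153 and 122, TRIM25 and TRIM8 move to the right and TRIM6 moves to the left.

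TRIM genes went both ways when BARD1 was silenced. Of the 44 tested, 13 rose and 10 fell in the edgeR quasi-likelihood test at an adjusted p under 0.05, and 21 were not called. That is 52.3% called, where 42.3% of all 15271 tested genes and 47.1% of the protein-coding ones were called. By direction, 29.5% of the members rose against 22% of all tested genes, and 22.7% fell against 20.3%. The median log2 fold change was 0.04, and −0.01 over all tested genes. Called changes of at least 1.5-fold were reached by 6 higher and 6 lower members, 27.3% of those tested against 15.5% of all tested genes. A change of 2-fold was reached by 2 members, both lower, or 4.55% against 6.42%. The libraries of the groups did not overlap in 29 members, 65.9% against 50.4% of all tested genes. The share called in each direction lies near the background, and the balance of directions moved with how libraries were scaled: upper-quartile factors, like library size alone, gave 12 higher and 15 lower members. Over all genes the share of higher calls went from 51.9% to 41.5% with upper-quartile factors.

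**Figure D2:**
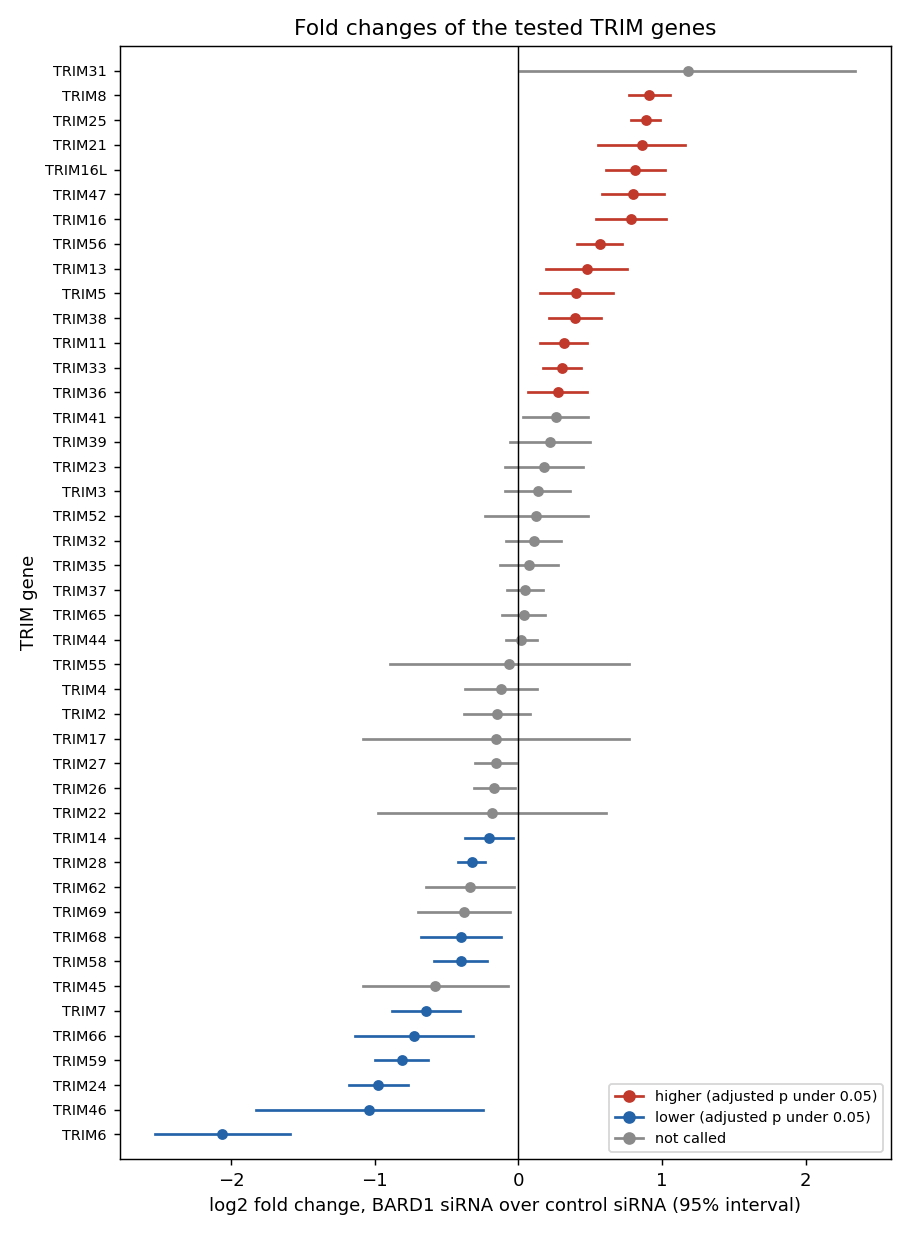
Log2 fold change of BARD1 siRNA over control siRNA for each of the 44 tested TRIM genes, with bars for the 95% interval and 3 libraries per group. TRIM6 lies farthest below 0 at −2.06, TRIM8 has the largest increase that was called, at 0.91, and the wide bar of TRIM31 goes with its low counts. TRIM31 passed the filter on low counts only through the silenced libraries, so its position is not a measured size of change.

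TRIM6 had the largest decrease of the family. It encodes a PRY-SPRY ligase that builds unanchored ubiquitin chains in interferon signalling, and it lies on chromosome 11 (ENSG00000121236, GRCh38 chr11:5596109-5612958, plus strand). Its counts were 139, 140 and 139 in controls and 25, 41 and 30 after silencing. The control libraries were almost equal, and every BARD1 siRNA library lay far below them. Its normalised level was 7.95 ± 0.257 CPM in controls and 1.90 ± 0.470 CPM after silencing (mean ± SD of 3 libraries, as throughout), 4.17-fold lower (−2.06 ± 0.23 on the log2 scale, SE; adjusted p = 1.51e-10 by edgeR). A read-through gene, TRIM6-TRIM34, covers 29.3% of the exon bases of TRIM6 and 83.0% of those of TRIM34. The read-through row held 0 counts in every library, and TRIM34 held 1 count over the controls and 3 after silencing. Reads from the shared exons cannot be told apart, so the values of TRIM6 and TRIM34 are uncertain in that respect.

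Of the tested neighbours of TRIM6, TRIM5 rose and TRIM22 was not called. TRIM5, whose product binds retroviral capsids, lies within 500 kb on the minus strand and had counts of 268, 219 and 227 against 294, 272 and 341. It rose 1.32-fold (0.40 ± 0.13 on the log2 scale, SE; adjusted p = 0.00769 by edgeR), with no overlap between the groups, and the call was lost without BARD1 siRNA replicate 3, at an adjusted p of 0.0621. TRIM22, an interferon-induced antiviral member that overlaps TRIM5 but shares none of its exon bases, had counts of 27, 21 and 45 against 28, 35 and 15. Its groups overlapped, with a log2 fold change of −0.18 and a 95% interval from −0.97 to 0.61. A pair elsewhere on chromosome 11 split as well: TRIM21 rose and TRIM68, a coactivator of the androgen receptor, fell from 14.0 ± 1.25 to 10.6 ± 0.974 CPM (adjusted p = 0.0170 by edgeR). The call of TRIM68 was lost without control siRNA replicate 3 (adjusted p = 0.0829) and without BARD1 siRNA replicate 1 (0.0805).

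All 4 members with a PHD finger and bromodomain were called, 3 lower and 1 higher, where 42.3% of all tested genes were called in either direction. TRIM24, a coregulator of nuclear receptors and a ligase of p53, had counts of 648, 528 and 656 in controls and 279, 297 and 318 after silencing. The groups stood far apart, and the level fell from 34.8 ± 3.27 to 17.7 ± 0.555 CPM, a 1.97-fold reduction (−0.98 ± 0.10 on the log2 scale, SE; adjusted p = 1.53e-11 by edgeR). TRIM28 fell 1.25-fold, with counts of 10704, 10793 and 10942 against 8312, 8332 and 8244. This was a small change measured with high precision (−0.32 ± 0.05 on the log2 scale, SE; adjusted p = 7.80e-08 by edgeR), from 617 ± 14.8 to 493 ± 19.0 CPM. TRIM66, the fourth gene of the class by level, had 104, 125 and 153 counts against 71, 65 and 86, a log2 fold change of −0.72 (± 0.20, SE; adjusted p = 0.00310 by edgeR). It overlaps the ribosomal protein gene RPL27A, which had 9631 counts on average, on 0.80% of its exon bases. TRIM33, a ligase of SMAD4 in TGF-beta signalling, went the opposite way, with 1899, 1566 and 2020 counts against 2206, 2217 and 2052. The level of TRIM33 rose from 104 ± 10.7 to 128 ± 9.30 CPM (0.30 ± 0.07 on the log2 scale, SE; adjusted p = 0.000180 by edgeR).

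Further decreases were spread over several classes. TRIM59, anchored in the membrane of the endoplasmic reticulum, had counts of 797, 688 and 791 against 403, 409 and 431 and fell 1.76-fold (−0.81 ± 0.09 on the log2 scale, SE; adjusted p = 1.02e-10 by edgeR). It shares 19.9% of its exon bases with the condensin gene SMC4 on the opposite strand. SMC4 had more counts, 5852 against 587 on average, and itself fell by 0.56 on the log2 scale. The part of SMC4 reads in the value of TRIM59 was not tested. TRIM7, which binds glycogenin, fell from 22.2 ± 1.88 to 14.2 ± 0.544 CPM, with 352, 399 and 417 counts against 241, 233 and 244 (adjusted p = 8.06e-06 by edgeR). TRIM58, known from red cell maturation, had 822, 699 and 727 counts against 574, 478 and 581, a 1.32-fold reduction (adjusted p = 0.000291 by edgeR). TRIM46, which bundles microtubules in neurons, was low, with 45, 45 and 25 counts against 13, 19 and 22. It fell by 1.04 on the log2 scale (± 0.39, SE; adjusted p = 0.0295 by edgeR), a call lost without any 1 of 4 libraries. The adjusted p was 0.125 and 0.131 without control siRNA replicates 1 and 2, and 0.101 and 0.0523 without BARD1 siRNA replicates 1 and 2.

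TRIM8 had the largest increase among members that passed the test. It encodes a ligase that promotes NF-κB signalling and binds SOCS1 (ENSG00000171206, GRCh38 chr10:102642310-102660680, plus strand). Counts were 780, 813 and 779 in controls and 1322, 1442 and 1527 after silencing, so that the groups were widely separated. The level rose from 45.1 ± 2.34 to 84.8 ± 3.22 CPM, 1.88-fold (0.91 ± 0.07 on the log2 scale, SE; adjusted p = 8.33e-16 by edgeR). TRIM16, which takes part in autophagy of damaged membranes, and TRIM16L, its shorter copy, rose alike. TRIM16 had 257, 248 and 204 counts against 341, 423 and 410 and a log2 fold change of 0.78 (± 0.12, SE; adjusted p = 3.57e-07 by edgeR). It shares 23.5% of its exon bases with AC005324.3 on the same strand, which had 1.83 counts on average. TRIM16L had 328, 338 and 333 against 598, 514 and 572 and a log2 fold change of 0.81 (± 0.10, SE; adjusted p = 2.38e-09 by edgeR). The copies are close in sequence and reads may have been divided between them, so the pair is uncertain as 2 separate results.

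TRIM47, a PRY-SPRY member, had 298, 333 and 303 counts against 443, 541 and 580 and rose 1.74-fold (adjusted p = 1.22e-08 by edgeR). It shares 51.5% of its exon bases with the antisense gene AC087289.5, which had 2.83 counts on average. TRIM65, the neighbour of TRIM47, was not called, at 54.9 ± 2.80 and 56.3 ± 1.73 CPM (log2 fold change 0.04, 95% interval −0.11 to 0.19). TRIM13, an endoplasmic reticulum ligase that acts in degradation of misfolded proteins, rose from 10.9 ± 0.859 to 15.1 ± 2.20 CPM, with 208, 177 and 186 counts against 261, 212 and 289 (adjusted p = 0.00434 by edgeR). TRIM13 shares 4.28% of its exon bases with the antisense gene DLEU2, which was not called, and 13.4% with KCNRG, which had 11 counts on average. TRIM11 and the microtubule-binding TRIM36 had smaller increases, by 0.32 and 0.28 on the log2 scale. The call of TRIM36 (adjusted p = 0.0259 by edgeR) was lost without control siRNA replicate 1 or 2 or BARD1 siRNA replicate 2 or 3. The adjusted p of these fits ran from 0.0668 to 0.0991. The call was also lost with upper-quartile factors, library size alone and no filter on low counts, and it held in 9 of 16 alternatives.

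**Figure D3:**
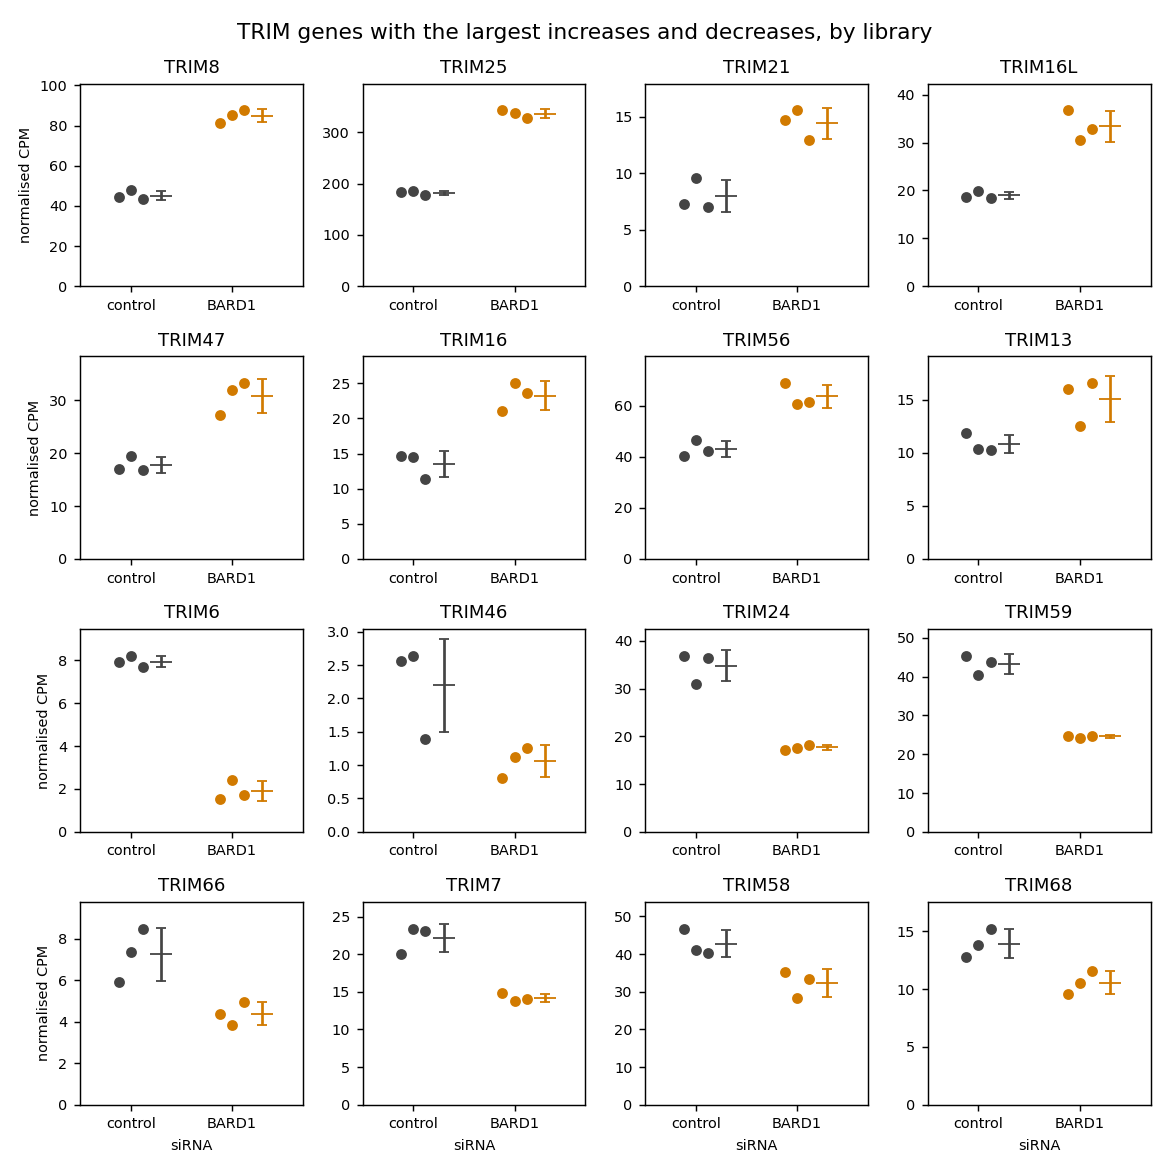
Normalised CPM in each library for the 8 called TRIM genes with the largest increases (upper 8 panels) and the 8 with the largest decreases (lower 8 panels), with points for libraries and, beside them, the mean and SD of 3. Every axis starts at 0, and in all 16 genes the 3 libraries of 1 group lie above the 3 of the other.

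Members known to be induced by interferon were listed as a group of 11, of which 10 were tested. In this list 5 rose (TRIM25, TRIM21, TRIM56, TRIM5 and TRIM38), 1 fell (TRIM14) and 4 were not called, where 22% of all tested genes rose and 20.3% fell. The median log2 fold change of the list was 0.40, and −0.01 over all tested genes. This median includes TRIM31, which passed the filter on low counts only through the silenced libraries. With upper-quartile factors 3 members of the list fell. TRIM25 (ENSG00000121060, GRCh38 chr17:56836387-56914080, minus strand) had the smallest adjusted p of the family. Its counts were 3227, 3149 and 3193 in controls and 5578, 5715 and 5702 after silencing, with little spread within either group. The level rose from 182 ± 4.19 to 336 ± 8.04 CPM, 1.85-fold (0.89 ± 0.05 on the log2 scale, SE; adjusted p = 2.86e-21 by edgeR). The overlapping genes DGKE and C17orf67 also rose (log2 changes of 0.58 and 0.63) and cover 0.84% and 1.39% of its exon bases.

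TRIM21, the cytosolic antibody receptor, had 128, 163 and 126 counts against 239, 263 and 225. It rose from 7.95 ± 1.41 to 14.4 ± 1.35 CPM (0.86 ± 0.15 on the log2 scale, SE; adjusted p = 4.74e-06 by edgeR), with every BARD1 siRNA library above every control. TRIM56, which aids STING and RNA sensing, had 712, 793 and 761 counts against 1122, 1029 and 1068, a 1.48-fold increase (adjusted p = 3.37e-08 by edgeR). TRIM38, a regulator of innate immune signalling, rose 1.31-fold, from 31.4 ± 3.65 to 41.2 ± 1.21 CPM (adjusted p = 0.000331 by edgeR). TRIM14, a RING-less adaptor of the MAVS complex, had 906, 810 and 1031 counts against 755, 817 and 716. Its groups overlapped, and the adjusted p of 0.0451 at a log2 fold change of −0.20 (SE 0.08) lay close to the threshold. The call was lost in 8 of 16 alternatives. These included DESeq2 (adjusted p = 0.0722) and the fits without control siRNA replicate 1 or 3 (0.0776 and 0.247) or BARD1 siRNA replicate 1 or 3 (0.0583 and 0.257). TRIM14 shares 7.72% of its exon bases with NANS on the opposite strand. NANS was not called and had 1200 counts on average against 839 for TRIM14.

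The other tested members of the list were not called. TRIM26 had 1134, 1120 and 1135 counts against 905, 1004 and 990, and TRIM69 had 173, 171 and 178 against 113, 130 and 143. In both genes every BARD1 siRNA library was below every control once scaled, with log2 fold changes of −0.17 and −0.38 and edgeR adjusted p of 0.0535 and 0.0524. TRIM31, which acts on MAVS, had 12, 4 and 5 counts against 18, 11 and 17. Control counts of 4 and 5 lay below the filter's minimum of 10, so TRIM31 passed only through the silenced libraries. Its fold change and p are therefore not given.

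Promoters of 5 members are shown because they set interferon-listed genes of opposite direction beside TRIM6, the member with the largest decrease. TRIM21, TRIM5 and TRIM25 of that list rose and TRIM14 of that list fell. TRIM25 also had the smallest adjusted p of the family. The promoters are from RefSeq (GRCh38.p14) and run from 250 bases before to 50 bases after 1 annotated start. Capitals mark every match, on either strand, to GAAANNGAA (IRF type), GGANTTTCC (NF-κB type), TGANTCA (AP-1 type), TTTCCCGC or TTTGGCGC (E2F type) and TGATGNAA (ATF4 or C/EBP type).
TRIM21 promoter (chr11:4393653-4393952, minus strand): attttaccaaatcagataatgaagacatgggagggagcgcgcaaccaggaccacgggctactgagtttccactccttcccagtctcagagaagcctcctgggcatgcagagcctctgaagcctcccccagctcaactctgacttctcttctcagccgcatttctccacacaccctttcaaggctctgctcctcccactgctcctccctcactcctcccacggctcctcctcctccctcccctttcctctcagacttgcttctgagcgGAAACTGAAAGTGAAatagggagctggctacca
TRIM5 promoter (chr11:5685025-5685324, minus strand): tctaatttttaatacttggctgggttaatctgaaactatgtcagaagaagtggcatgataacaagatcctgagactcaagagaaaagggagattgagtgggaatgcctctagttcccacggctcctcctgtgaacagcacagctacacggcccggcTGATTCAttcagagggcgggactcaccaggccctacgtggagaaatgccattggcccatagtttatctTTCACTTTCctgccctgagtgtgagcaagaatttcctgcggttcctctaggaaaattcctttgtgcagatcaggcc
TRIM14 promoter (chr9:98119173-98119472, minus strand): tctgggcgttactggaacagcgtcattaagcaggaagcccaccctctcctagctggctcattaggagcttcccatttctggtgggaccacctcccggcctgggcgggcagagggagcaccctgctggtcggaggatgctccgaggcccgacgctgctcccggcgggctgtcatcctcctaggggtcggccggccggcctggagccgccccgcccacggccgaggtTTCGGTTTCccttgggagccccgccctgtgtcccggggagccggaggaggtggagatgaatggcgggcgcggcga
TRIM25 promoter (chr17:56914000-56914299, minus strand): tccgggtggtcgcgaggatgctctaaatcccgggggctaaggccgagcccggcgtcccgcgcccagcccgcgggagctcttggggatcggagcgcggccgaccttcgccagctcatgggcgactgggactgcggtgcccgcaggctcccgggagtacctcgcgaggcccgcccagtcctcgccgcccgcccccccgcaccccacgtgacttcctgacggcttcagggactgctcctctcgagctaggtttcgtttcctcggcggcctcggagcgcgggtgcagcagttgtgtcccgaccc
TRIM6 promoter (chr11:5596387-5596686, plus strand): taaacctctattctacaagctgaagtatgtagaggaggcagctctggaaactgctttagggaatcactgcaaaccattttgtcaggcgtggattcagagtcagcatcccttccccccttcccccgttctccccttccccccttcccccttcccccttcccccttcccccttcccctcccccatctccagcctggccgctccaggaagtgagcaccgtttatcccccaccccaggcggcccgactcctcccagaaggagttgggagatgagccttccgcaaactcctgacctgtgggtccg

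The IRF-type letters occurred as overlapping matches in TRIM21, just after the start, and once each in TRIM5 and TRIM14. TRIM5 also held an AP-1 type match, and the windows of TRIM25 and TRIM6 held none of the searched letters. Of the interferon-listed members not shown, TRIM38, TRIM56 and TRIM31 held none either, and TRIM26, TRIM69 and TRIM34 held the IRF type. TRIM22 had no entry. The promoter table held 60 of the 78 members and 32 of the 44 tested ones. It had no entry for TRIM8, TRIM11, TRIM13, TRIM16L, TRIM24, TRIM28 and others. The IRF-type letters stood in 8 of these 32 promoters, or 25.0%, against 8.29% of 27305 promoters of that length. By call they stood in 3 of 9 that rose (TRIM21, TRIM5 and TRIM16), 1 of 8 that fell (TRIM14) and 4 of 15 that were not called. Among the 28 untested members with an entry they stood in 2. The 27305 promoters were not limited to tested genes, so the background of the tested members alone is not given. NF-κB type letters were in 0 of 32 members and 1.64% of all promoters, and E2F type letters in 4 of 32 and 2.31%. AP-1 type letters were in 2 of 32 and 7.76% of all promoters, and ATF4 or C/EBP type letters in 1 of 32 and 3.67%. Among the 28 untested members the NF-κB type stood in 1, the E2F type in 0, the AP-1 type in 6 and the ATF4 or C/EBP type in 3. A match describes letters in this window only.

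By C-terminal domain the calls were mixed. Of 24 tested PRY-SPRY members 8 rose and 5 fell (median log2 change −0.04), where 22% of all tested genes rose and 20.3% fell. Among the 5 tested members with no further C-terminal domain TRIM8 and TRIM56 rose. In the transmembrane class TRIM13 rose and TRIM59 fell, and in the class with COS box, fibronectin and PRY-SPRY domains TRIM36 rose and TRIM46 fell. TRIM37 (MATH domain), TRIM23 (ARF domain) and TRIM45 (filamin repeat alone) were not called, with log2 changes of 0.05, 0.18 and −0.58. TRIM4, TRIM17, TRIM27, TRIM35, TRIM52 and TRIM62 were not called either, with log2 changes from −0.34 to 0.13. The NHL repeat members TRIM2, TRIM3 and TRIM32 were not called, with log2 fold changes from −0.15 to 0.13. Of 21 members not called, 14 had a 95% interval wholly within a 1.5-fold change in either direction, among them TRIM44, TRIM37 and TRIM65 of the most abundant genes. TRIM44 counts were 3381, 3058 and 3323 against 3269, 3089 and 3135 and its interval ran from −0.09 to 0.13. TRIM37 counts were 1450, 1357 and 1526 against 1388, 1448 and 1460, with an interval from −0.08 to 0.17.

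Positions in the genome gave no common direction. In the chromosome 6 stretch from 30102897 to 30346854, none of the 3 tested genes TRIM31, TRIM26 and TRIM39 was called by edgeR. The other 4 genes there (TRIM40, TRIM10, TRIM15 and the read-through TRIM39-RPP21) were too low to test. The read-through TRIM39-RPP21 had 0 counts and covers 29.5% of the exon bases of TRIM39. The antisense gene HCG18, which was called higher, covers 12.2% of them and had 457 counts on average against 208.5 for TRIM39. In the chromosome 5 stretch of TRIM7, TRIM41 and TRIM52, TRIM7 alone was called. TRIM41 had 480, 560 and 385 counts against 495, 550 and 599. It was not called (log2 change 0.26; adjusted p = 0.0572 by edgeR), and it passed in 5 of 16 alternatives: no filter (0.0480), protein-coding genes only (0.0475), limma-voom (0.0406), the replicate block (0.0270) and without control siRNA replicate 2 (0.00145). Its log2 change was 0.42 without that library and 0.11 without control siRNA replicate 3. Of the 44 tested members 12 overlap another tested gene, and for 6 members an overlapping gene had the higher mean count.

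Of the members below the filter, TRIM54 is singled out here after its values were seen. It encodes a muscle ligase with a COS box. It had 3, 0 and 6 counts in controls and 32, 8 and 19 after silencing, 9 against 59 over the groups, which did not overlap. With no filter on low counts it was called higher. Its controls were near 0, so its fold change and p are not given and the call adds no support. TRIM54 shares 1.45% of its exon bases with UCN on the opposite strand, which had 10.7 counts on average against 11.3 for TRIM54. The other COS-box muscle genes were TRIM55, not called with 75 counts against 69, and TRIM63, without a count. The remaining genes under the filter ranged from TRIM75P and TRIM67 with 1 count each to TRIM73 with 34, and none of them was called with no filter on low counts, the only alternative that tested them.

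Genes of the TRIM type that carry other names were given as a list of 9, of which 7 were tested, 3 rose and 1 fell, where 42.3% of all tested genes were called. MEFV, which encodes the inflammasome sensor pyrin, had 1, 7 and 0 counts in controls and 94, 63 and 86 after silencing. MEFV passed the filter on low counts only through the silenced libraries, and its controls were near 0, so its fold change and p are not given and its call, 1 of the 3, adds no support. PML, the organiser of nuclear bodies, rose from 101 ± 5.72 to 160 ± 7.98 CPM (log2 change 0.67; adjusted p = 4.97e-14 by edgeR). CMYA5, a muscle protein, rose by 1.10 on the log2 scale at a low level of 3.11 ± 1.04 CPM. MID1, a microtubule-bound ligase, fell from 30.2 ± 2.54 to 18.9 ± 1.49 CPM (log2 change −0.68; adjusted p = 3.55e-07 by edgeR).

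The genes around the family were given as 3 lists, which were drawn up with earlier results of these data known. Of 19 tested genes of nucleic acid sensing, in which TRIM25, TRIM56, TRIM14 and TRIM31 act, 10 rose and 0 fell (median log2 change 0.48). Of all tested genes 22% rose and 20.3% fell. The adaptor TICAM1 rose by 1.18 and the kinase IKBKE, which TRIM6 helps to activate, by 0.84. STING (TMEM173 in the table) rose by 0.82 and IRF7 by 0.79. RIG-I (DDX58), the substrate of TRIM25, rose from 4.50 ± 0.148 to 7.25 ± 0.682 CPM. MAVS and IRF3 had log2 fold changes of −0.11 and −0.06 and were not called. The DNA sensor gene CGAS had 3, 4 and 1 counts in controls and 2, 0 and 0 after silencing and was too low to test. At an unadjusted p under 0.05 the count of lower genes was 1, and DESeq2 called 0.

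Of 19 partners of TRIM28 in gene silencing 9 fell and 1 rose, with a median of −0.18, beside 20.3% lower and 22% higher over all tested genes. ZNF10, a KRAB zinc finger protein, fell by 0.65 on the log2 scale, FAM208A of the HUSH complex by 0.52 and the heterochromatin protein gene CBX5 by 0.46. The methyltransferase SETDB1 was not called, at a log2 fold change of 0.11. The histone chaperone gene DAXX rose by 0.42. Of 18 E2 enzymes that serve RING ligases 7 rose and 3 fell, with a median of 0.12, beside the same 22% and 20.3% of all tested genes, and 4 rose without BARD1 siRNA replicate 1. UBE2H rose by 0.61 and UBE2D3 by 0.40, while UBE2D4 fell by 0.68. UBE2V1 rose by 0.92, a value that is uncertain since it has near-identical pseudogenes. The list medians stand beside −0.01 over all tested genes.

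**Figure D4:**
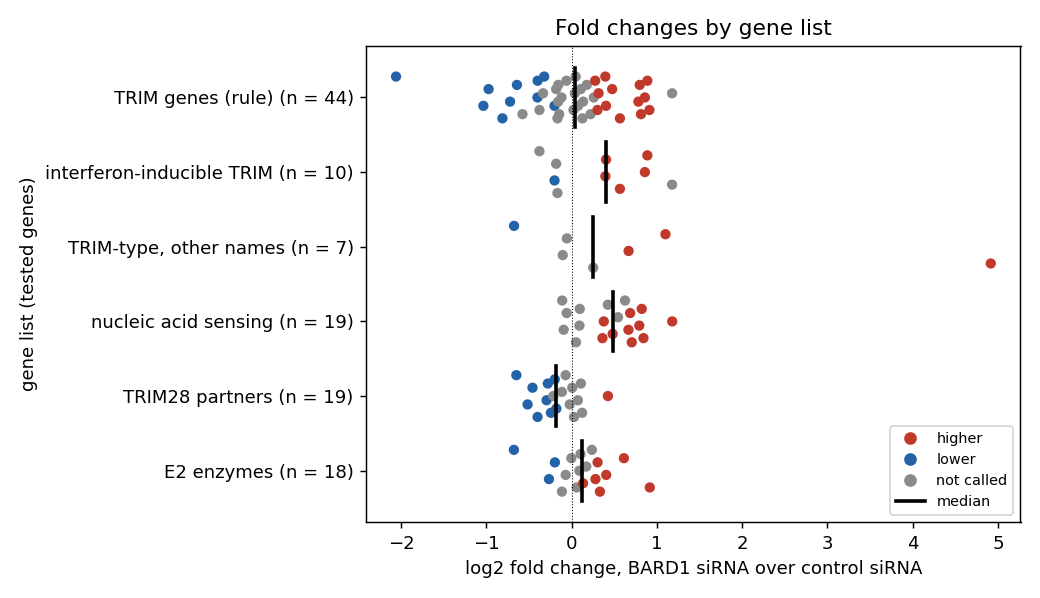
Log2 fold change of BARD1 siRNA over control siRNA for the tested genes of each list, one point per gene, coloured by call, with a black bar at the list's median. The TRIM genes centre near 0, the sensing genes have a median of 0.48 and no lower call, and the point farthest to the right is MEFV, whose position rests on control counts of 1, 7 and 0 and is not a measured size of change.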

How the data were processed

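RNA was sequenced from 6 cultures, and the authors deposited raw read counts per gene with no normalisation. HISAT2 and CASAVA were used with GRCh38, per the submitters' processing notes. The read counter and its strandedness were nowhere given in the sources used here. Coordinates of all 78 members equal those of GENCODE release 29, from which shared exon bases were computed. Libraries are biological replicates per the labels, and p-values cover only the spread among these cultures. The counts were tested with edgeR 4.0.16 in R 4.3.3 (robust quasi-likelihood, TMM factors, group alone) on 15271 genes that passed filterByExpr (minimum count 10, minimum total 15). Benjamini-Hochberg adjustment ran over all of these and the threshold was 0.05. Standard errors (SE) came from dividing each log2 change by the root of its F statistic. The script was tested on simulated data.

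The rule for members reads names and biotypes alone, but the family and the lists were chosen with earlier results of these data known. Members named in full are the 8 largest and 8 smallest called log2 fold changes, the 5 highest levels, the interferon list and read-through genes. From each further list up to 4 called genes with the largest change are named, and others were added after their values were seen. Where gene models overlap, assignment of reads is uncertain. Alternatives were other scaling (RLE, upper-quartile, none), no filter, 1 CPM in 3 libraries, protein-coding genes only, DESeq2 1.42.0, limma-voom (limma 3.58.1), no robust estimation, a replicate block and leaving out each library.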

Additional observations from a re-analysis of the deposited data

How the results depend on the processing

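Of the 23 TRIM genes called, 18 (11 higher and 7 lower) had the same call in all 16 alternatives. The other 5 were TRIM5, TRIM14, TRIM36, TRIM46 and TRIM68. Of the 21 not called, 15 were called in none. Without each library in turn 11 to 14 members were higher and 7 to 11 lower. The 1 lower gene of the interferon list became 3 with upper-quartile factors, library size alone, 1 CPM in 3 libraries and protein-coding genes only. The genes added there were TRIM26 and TRIM69, whose adjusted p in the main edgeR fit was 0.0535 and 0.0524. The count became 0 with no filter on low counts, DESeq2 and limma-voom, and 0 to 1 without each library. In the first 3 of these the gene lost was TRIM14, at 0.0451 in the main fit. All 3 genes lay close to the threshold, and why their calls moved was not tested further. Lower sensing genes went from 0 to 1 with upper-quartile factors and library size alone, and 0 to 1 without each library. Over the libraries left out, higher E2 genes were 4 to 8 and higher TRIM28 partners 1 to 2. Same-numbered libraries did not deviate together over the tested genes (correlations from −0.0218 to −0.00906), so no pairing by number was seen. Whether same-numbered cultures were handled together cannot be told from these values. The replicate block gave 14 higher and 10 lower members, with TRIM41 added. Low counts limit TRIM17, TRIM22, TRIM31, TRIM46 and TRIM55.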
